A study of Mus musculus with 24 samples.

Results

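Open chromatin was compared between Utx knockout (KO) and Utx wild-type (WT) blood progenitors that both carried a guide RNA (gRNA) against Smarca4, the gene of the chromatin remodeller Brg1. The comparison rests on 4 of the 24 samples of the study, chosen by their labels: 2 Utx KO and 2 Utx WT libraries of ATAC-seq set B with the guide named gRNA_Smarca4_2. It asks which open regions still differ by Utx genotype when Brg1 is targeted. The cells were lineage-negative bone marrow progenitors (HSPCs) of C57BL/6 mice. The genotype was labelled UTX_KO, Cas9 in the KO libraries and UTX_WT, Cas9 in the WT libraries, so that both genotypes carried the Cas9 nuclease. The protocol for Brg1 editing, filed with another ATAC set of the study, gives 7 days of semisolid culture, 5 days of liquid culture and profiling 6 days after editing. Beside them stand 2 Utx KO and 2 Utx WT libraries of the same set with an empty guide vector, and ChIP-seq of progenitors from bone marrow labelled only as Utx KO or Utx WT: 2 of each for the enhancer mark H3K4me1 and 3 of each for the factor PU.1. Only 1 guide against Smarca4 was used, and the labels do not say how many mice a library came from. Peak lists do not show whether Utx was deleted or Smarca4 edited in a library.

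Utx, encoded by the X-linked gene Kdm6a, removes methyl groups from lysine 27 of histone H3 and is a subunit of the COMPASS-like complexes that place H3K4me1 at enhancers. Brg1 is the ATPase of the BAF complex, which slides and evicts nucleosomes and thereby keeps enhancers accessible. ATAC-seq marks accessible DNA by the insertions of a transposase, and a peak is a stretch where the peak caller found more insertions than its background.

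Promoters give the sequence side of the comparison. Of 32851 RefSeq promoter windows of 300 bases (250 before to 50 after a gene start, GRCm38.p6), 285 (0.868%) held a peak in neither KO and in both WT libraries, and are called closed. A peak in both KO and in neither WT library was found at 77 windows (0.234%), called opened. All 4 libraries had a peak at 11686 windows (35.6%), called kept. In 39 closed windows of 36 genes the peaks of both WT libraries covered all 300 bases. Of those, 7 genes had the letters GAGGAAGT, a form of the ETS motif that PU.1 binds, in the window on either strand. A stretch of 100 bases is printed for the 5 that are not predicted gene models with a Gm number, 5′ to 3′ on the gene's strand, with the motif in capitals (ACTTCCTC where it lies on the other strand). They were picked after the values were seen.
Frrs1: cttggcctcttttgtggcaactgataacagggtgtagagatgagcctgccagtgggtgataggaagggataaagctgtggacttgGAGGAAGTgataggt
Ifi47: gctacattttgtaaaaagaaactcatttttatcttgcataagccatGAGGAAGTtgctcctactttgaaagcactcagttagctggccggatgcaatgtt
Mctp2: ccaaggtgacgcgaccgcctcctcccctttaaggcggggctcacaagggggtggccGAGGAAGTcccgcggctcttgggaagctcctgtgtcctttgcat
Nadk: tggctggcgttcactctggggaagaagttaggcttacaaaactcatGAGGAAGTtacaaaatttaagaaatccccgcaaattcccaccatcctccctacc
Tnip3: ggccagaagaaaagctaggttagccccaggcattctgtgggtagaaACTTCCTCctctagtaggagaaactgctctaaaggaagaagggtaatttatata
They lie at chr3:116859467-116859566 (plus strand) for Frrs1, a ferric reductase gene, chr11:49076393-49076492 (plus) for Ifi47, an interferon-induced GTPase gene, chr7:72306596-72306695 (minus) for Mctp2, chr4:155562259-155562358 (plus) for Nadk, the NAD kinase gene, and chr6:65590186-65590285 (plus) for Tnip3, whose product binds the NF-kappaB inhibitor A20. All 5 windows held an H3K4me1 island in both KO and both WT ChIP libraries, and PU.1 islands in 2 or 3 of 3 KO libraries and in 3 of 3 WT libraries. With the empty vector, the Mctp2 window was open in 0 KO and 2 WT libraries, and the other 4 windows in 1 KO library and in 1 or 2 WT libraries.

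Closed and opened promoters differed in base composition. Of 9 opened windows that both KO libraries covered in full, 2 are shown over the 200 bases before the start, picked after the values were seen, with every CpG in capitals.
Mboat2: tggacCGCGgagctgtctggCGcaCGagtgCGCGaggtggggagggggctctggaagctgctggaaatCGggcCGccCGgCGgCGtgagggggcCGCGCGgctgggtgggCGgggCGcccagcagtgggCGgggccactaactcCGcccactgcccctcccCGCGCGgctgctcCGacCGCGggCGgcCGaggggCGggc
Zfp385b: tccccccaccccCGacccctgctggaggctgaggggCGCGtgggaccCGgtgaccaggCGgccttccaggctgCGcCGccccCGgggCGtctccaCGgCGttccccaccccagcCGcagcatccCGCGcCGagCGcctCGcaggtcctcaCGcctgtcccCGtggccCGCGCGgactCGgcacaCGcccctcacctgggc
The Mboat2 stretch (chr12:24831399-24831598, plus strand) belongs to a phospholipid acyltransferase gene and held 27 CpG. The Zfp385b stretch (chr2:77816817-77817016, minus strand) belongs to a zinc finger gene and held 24. Neither WT library touched these 2 windows. With the empty vector the Mboat2 window was open in both KO and both WT libraries, and the Zfp385b window in 1 KO library. Closed windows had a median of 6 CpG (quartiles 3 and 10), against 22 for opened (15 and 34), 23 for kept (15 and 30) and 7 for all windows (3 and 20). Of the closed windows, 9.47% had 20 or more CpG, against 58.4% of the opened and 61.4% of the kept ones. When lists were cut to equal length, described with the peak counts, 193 windows were closed with a median of 6 CpG, 248 opened with 20 and 11331 kept with 23. An H3K4me1 island of every WT library lay at 77.5% of closed, 74.0% of opened, 44.9% of kept and 32.0% of all windows. A PU.1 island of every WT library lay at 58.2% of closed, 27.3% of opened, 87.4% of kept and 39.0% of all windows. Among windows with at most 10 CpG, H3K4me1 was at 74.5% of closed and 68.7% of kept windows, and PU.1 at 64.1% of closed and 85.2% of kept. These closed windows still had fewer CpG than the kept ones (median 5 against 7), and the part of CpG content in the gaps was not tested.

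**Figure D1:**
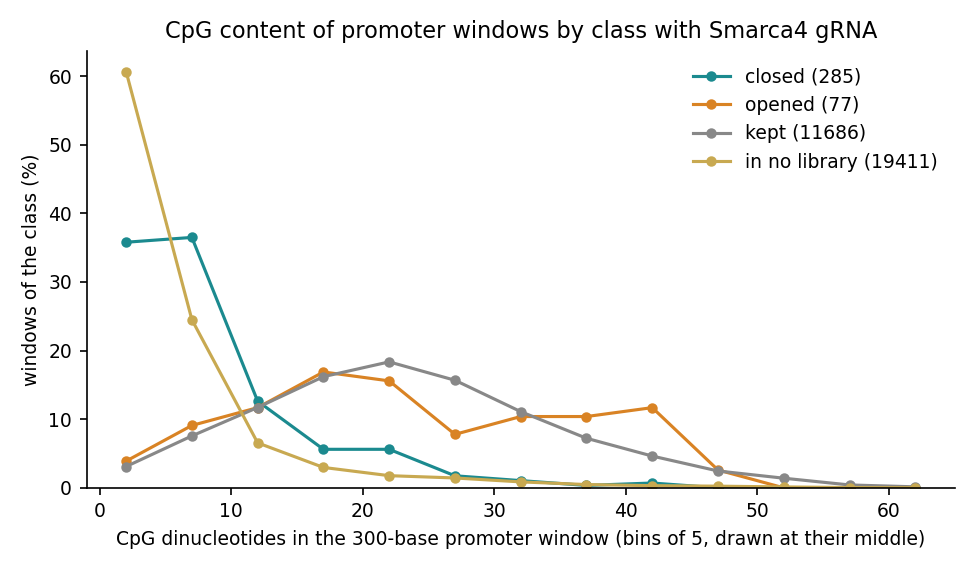
Share of promoter windows (vertical axis, percent of the class) by the number of CpG dinucleotides in the 300-base window (horizontal axis, bins of 5) for windows closed, opened or kept in Utx KO against WT with Smarca4 gRNA, and for windows with a peak in none of the 4 libraries. Closed windows crowd at the CpG-poor end, with a median of 6, while opened and kept windows spread around 22 and 23.

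Motif letters were counted on both strands of the whole window. GAGGAAGT stood in 22 closed windows (7.72%), in 0 of 77 opened windows, in 3.23% of kept and in 3.20% of all windows. A PU.1 island of every KO and WT library covered part of 18 of those 22 closed windows. Among windows with at most 10 CpG the shares were 8.18% of closed and 7.14% of kept, against 3.79% of all. That limit brings the classes closer in CpG content but does not match them, with a median of 5 CpG in closed and 7 in kept windows. The shorter ETS form AGGAAGT, which lies within GAGGAAGT, was found in 17.5% of closed, 6.49% of opened and 8.77% of kept windows, but among windows with at most 10 CpG in 44 of 220 closed and 285 of 1456 kept (19.6%). As for AP-1, the letters TGANTCA were found in 15.8% of closed, 5.19% of opened and 4.43% of kept windows, and among windows with at most 10 CpG in 16.8% of closed and 11.1% of kept. The GATA letters AGATAA were found in 37 of 285 closed windows, in 5.19% of opened and in 5.61% of kept windows, and the RUNX letters TGTGGT in 22.1% of closed, 7.79% of opened and 11.7% of kept. With at most 10 CpG, AGATAA stood in 33 of 220 closed windows and in 16.3% of kept ones, which turns the order, and TGTGGT in 26.4% of closed and 21.9% of kept. The GC box GGGCGG was found in 21.8% of closed, 74.0% of opened and 68.5% of kept windows, and with at most 10 CpG in 10.9% of closed and 26.2% of kept. The ETS form CCGGAAG, which holds a CpG, was found in 3.51% of closed, 1.30% of opened and 19.9% of kept windows, and with at most 10 CpG in 4.09% of closed and 8.38% of kept. Over all windows the shares were 9.35% for AGGAAGT, 7.81% for TGANTCA, 11.2% for AGATAA, 16.8% for TGTGGT, 35.7% for GGGCGG and 8.86% for CCGGAAG. The letters are matches in a window and not sites of binding.

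Across the genome, the Utx KO libraries with Smarca4 gRNA held fewer peaks than the WT libraries. The KO libraries had 35975 and 29930 peaks, which covered 23.9 and 19.5 Mb, and the WT libraries had 42015 and 46191 peaks, which covered 28.3 and 31.2 Mb. The mean was 32953 ± 4274 peaks in KO and 44103 ± 2953 in WT (SD, n = 2 each), 25.3% lower in KO. Both KO libraries lay below both WT libraries, and the exact two-sided permutation test gave p = 0.333, the smallest that 2 libraries against 2 allow. The deposited ATAC lists carry no read count, so their depth is unknown, and a shorter list from fewer open sites and one from fewer reads cannot be told apart. Peaks within 1 kb of the end of a protein-coding gene numbered 11866 and 11069 in KO and 12035 and 12582 in WT. That is 6.8% lower in KO on average, and both KO libraries again lay below both WT libraries. Peaks farther away numbered 24109 and 18861 in KO and 29980 and 33609 in WT, 32.4% lower in KO on average.

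**Figure D2:**
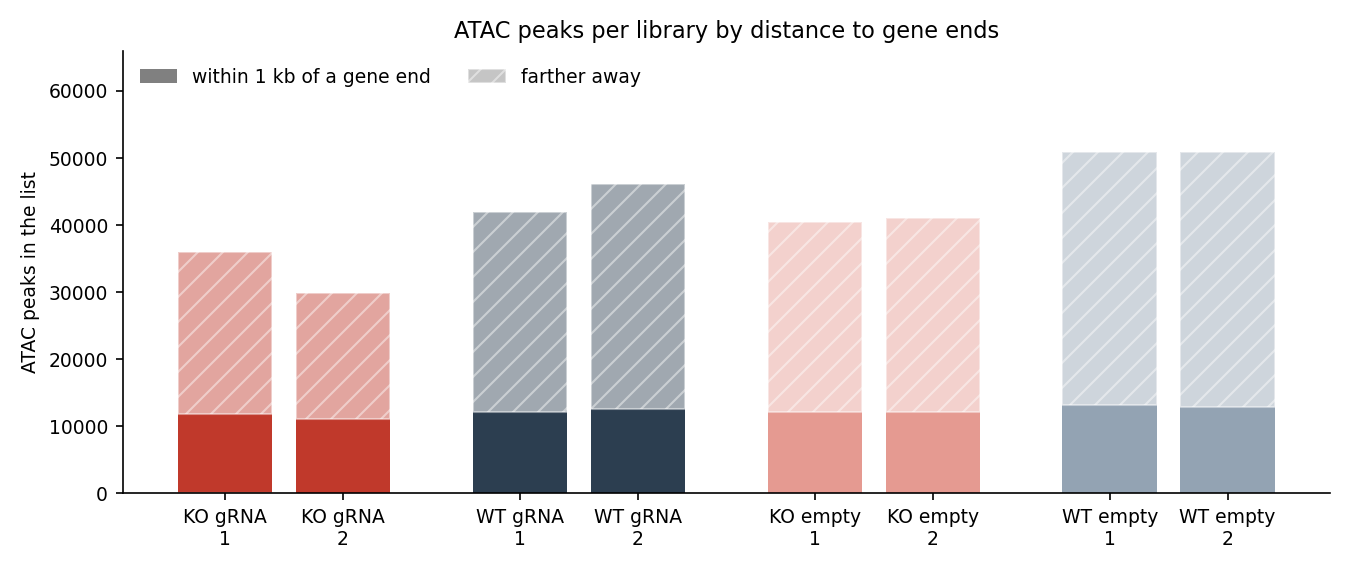
ATAC peaks in each of the 8 libraries of set B (vertical axis, number of peaks), split into peaks within 1 kb of a gene end (solid) and farther away (hatched), with Utx KO left of WT for each guide. The solid parts run from 11069 to 13109 in all 8 libraries, while the hatched parts are shorter in each KO library than in each WT library of the same guide.

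Fewer peaks in KO were seen without targeting of Brg1 too. There the KO libraries held 40477 and 41024 peaks and the WT libraries 50845 and 50927, which is 19.9% lower in KO. The KO minus WT difference averaged -11151 peaks with Smarca4 gRNA and -10136 with the empty vector. The difference between these 2 values was -1015 peaks, with p = 0.889 in an exact two-sided permutation of guide labels within genotype (36 arrangements, smallest possible p 0.0556). With n = 2 in each of the 4 groups, that p does not show that the 2 differences are equal. The libraries of the 2 guides were separate, but same-numbered ones may share a culture, which the labels do not say.

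Peaks of the 4 Smarca4 gRNA libraries merged into 52932 regions. Each region was classed by the same rule as the promoter windows. In KO cells 6520 regions (12.3%) were closed and 413 (0.78%) were opened, while 25465 (48.1%) were kept. The log2 ratio of closed to opened regions was 3.98. Replicates differed as well: 8552 regions were held by KO replicate 1 and not by KO replicate 2, and 2338 the other way, while 3535 were held by WT replicate 1 alone of the WT pair and 7916 by WT replicate 2. Regions held by only 1 KO library and no other library numbered 1687 and 1760, so that each exceeded the 413 opened regions. For the 4 pairs of 1 KO and 1 WT library the log2 ratio of regions held only in WT to regions held only in KO was 1.42, 2.26, 2.46 and 2.99, above 0 in every pair.

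The excess of closed over opened regions depended on list length. When each list was shortened to its widest 29930 peaks, the length of the shortest, 2304 regions were closed and 1731 opened, with a log2 ratio of 0.41. A peak cut from a list then counted as absent. A region opened at equal list length could therefore hold a WT peak in the deposited lists, where 413 regions were opened, and a closed one a KO peak. The same limit holds for every value given at equal list length. Without KO replicate 2, which has the shortest list, 6908 regions were closed and 2115 opened, and without KO replicate 1, 11800 and 2186. Without WT replicate 1, 12898 were closed and 589 opened, and without WT replicate 2, 9556 and 852. Of the regions closed in the full lists, 1668 (25.6%) were also closed at equal list length, and 284 of the opened ones (68.8%) were also opened.

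**Figure D3:**
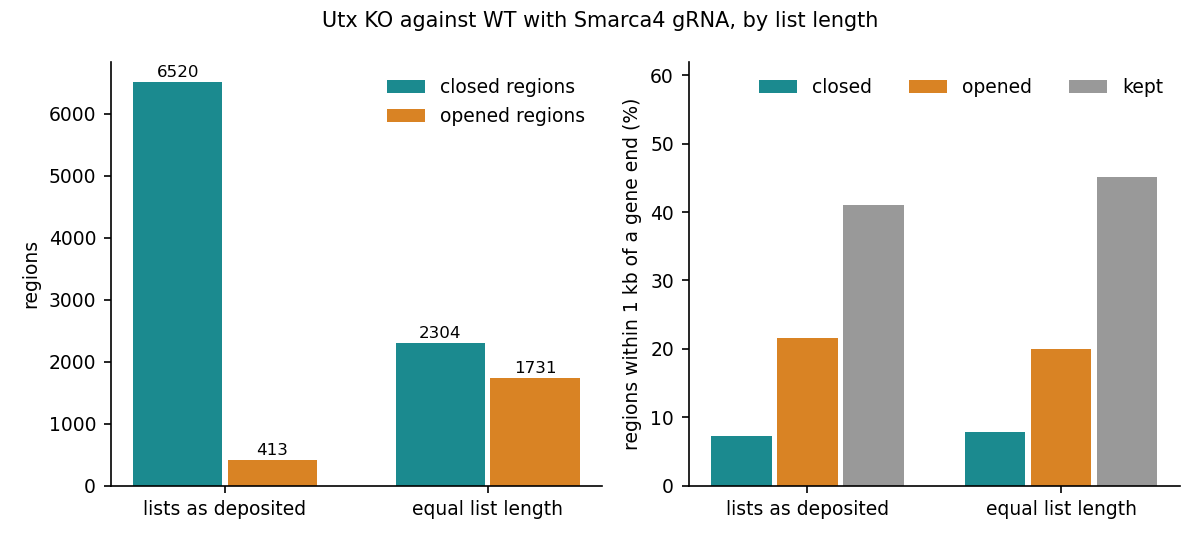
Left, number of regions closed and opened in Utx KO against WT with Smarca4 gRNA (vertical axis, regions) with the lists as deposited and at equal list length. Right, share of closed, opened and kept regions within 1 kb of a gene end (vertical axis, percent). The 6520 closed against 413 opened regions become 2304 against 1731, while the order of the shares near gene ends stays the same.

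Closed regions lay away from gene ends. Of the closed regions 7.30% were within 1 kb of a gene end, 56.2% inside a gene and 36.5% between genes. Of the opened regions 21.5% were within 1 kb of a gene end, 32.7% inside a gene and 44.3% between genes. The share near a gene end was 41.0% of kept and 24.9% of all regions. Among kept regions of at most 1 kb the share was 26.5%, so that part of the gap to kept regions moved with width. At equal list length it was 182 of 2304 closed (7.90%), 346 of 1731 opened and 9872 of 21874 kept regions (45.1%), in the same order. The closed regions were narrow, with a median of 328 and 359 bases in the 2 WT libraries, against 733 and 772 bases for kept regions in the same libraries. Opened regions had a median of 326 and 283 bases in the KO libraries, against 674 and 583 for kept regions there. On the autosomes 11.3% to 13.4% of the regions of a chromosome were closed, and on the X chromosome 9.30% (114 of 1226). Opened regions made up 1.63% of the X chromosome regions (20 of 1226), beside 0.78% of all regions.

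Part of the list of each direction was shared with the comparison of the same genotypes under the empty vector, which used other libraries. That comparison had 59456 regions, of which 6755 (11.4%) were closed in KO, 1141 (1.92%) opened and 33039 (55.6%) kept. Regions closed with both guides numbered 2196, which is 33.7% of those closed with Smarca4 gRNA and 32.5% of those closed with the empty vector. Regions opened with both guides numbered 148, which is 35.8% of the regions opened with Smarca4 gRNA, and 148 of the 1141 opened with the empty vector. At equal list length over all 8 libraries the shared regions were 751 closed (32.6% and 36.6% of the 2 lists) and 587 opened (33.9% and 29.7%).

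Looked up in each empty vector library by itself, 37.9% and 40.5% of the regions closed with Smarca4 gRNA had a peak in the KO libraries and 84.3% and 88.9% in the WT libraries. Both KO shares lay far below both WT shares. The opened regions showed the reverse, with 83.3% and 83.5% in the KO libraries and 39.2% and 38.3% in the WT libraries. Of the kept regions 99.2% to 99.6% had a peak in each of the 4. Of all 52932 regions, 69.6% and 70.1% had a peak in the KO libraries and 80.9% and 83.4% in the WT libraries. The KO shares were thus lower over all regions too, by less than at closed regions. In the empty vector libraries, 2229 closed regions (34.2%) had a peak in no KO and in both WT libraries, which differs slightly from the count above because the regions there were merged from other peaks. A further 1688 (25.9%) were open in all 4 empty vector libraries, 1260 (19.3%) in 1 KO and both WT libraries, and 341 (5.23%) in none. Of the regions closed with the empty vector, 2224 (32.9%) were closed with Smarca4 gRNA as well, 2052 (30.4%) had a peak in none of the 4 Smarca4 gRNA libraries, and 1817 (26.9%) in no KO and 1 WT library.

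H3K4me1 islands lay at fewer of the closed regions in both KO libraries than in both WT libraries. In KO progenitors 58.4% and 63.2% of the closed regions held an H3K4me1 island, and in WT progenitors 64.8% and 74.7%. The H3K4me1 lists of KO were shorter as a whole, with 44089 and 43706 islands, against 51394 and 54654 in WT. At kept regions the shares were 79.0% and 83.6% in KO and 76.5% and 87.7% in WT, and the genotypes overlapped. The share at closed minus that at kept regions of the same library was -20.5 ± 0.18 percentage points in KO and -12.4 ± 0.88 points in WT (SD, n = 2 each), with an exact two-sided permutation p = 0.333, the smallest possible. Away from gene ends the same gap was -13.1 and -12.9 points in the KO libraries and -9.27 and -8.05 points in the WT libraries, again with an exact permutation p = 0.333. An island in no KO and in both WT libraries was found at 388 closed regions (5.95%), beside 611 kept regions (2.40%) and 1903 of all 52932 regions. Among the closed regions open in all 4 empty vector libraries it was found at 140 (8.29%). Opened regions held islands less often in KO as well, at 31.7% and 37.3% against 37.5% and 41.9% in WT. Their gap to kept regions was -47.3 and -46.3 points in KO and -39.0 and -45.8 points in WT. The exact two-sided permutation p was again 0.333, the smallest possible. Away from gene ends the gap of opened regions was -46.6 and -46.6 points in KO and -45.0 and -47.6 points in WT, and the genotypes overlapped. Whether the lower shares in KO are particular to closed regions was not tested. Every WT library had an island at 63.2% of closed, 33.2% of opened, 75.6% of kept and 63.5% of all regions.

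PU.1, encoded by Spi1, is an ETS family factor of the myeloid and B lineages. PU.1 islands were at 57.6%, 53.2% and 57.2% of the closed regions in the KO libraries and at 55.9%, 56.2% and 56.1% in the WT libraries, and the ranges overlapped. The gap of closed to kept regions was -23.8 ± 0.14 points in KO and -23.3 ± 0.32 points in WT, a KO minus WT difference of -0.51 points (SD, n = 3 each; exact two-sided permutation p = 0.1, the smallest possible), and away from gene ends p was 0.5. Opened regions held PU.1 islands at 33.4%, 29.1% and 34.4% in KO and at 28.6%, 30.8% and 27.8% in WT, and the ranges overlapped. Their gap to kept regions was -47.5 ± 0.67 points in KO and -50.3 ± 1.45 points in WT (SD, n = 3 each). The KO minus WT difference was 2.77 points, and 3.78 points away from gene ends (exact two-sided permutation p = 0.1 for each, the smallest possible). Every WT library had an island at 50.6% of closed, 24.5% of opened, 19093 of 25465 kept and 58.0% of all regions. Of the opened regions 59.1% lay in no PU.1 island of any library and 51.1% in no H3K4me1 island, against 13.2% and 9.35% of kept regions. At equal list length PU.1 islands of every WT library were at 55.7% of closed, 43.0% of opened and 78.7% of kept regions, and H3K4me1 islands at 69.1%, 50.1% and 78.3%. Kept regions were wider, and among those of at most 1 kb the shares were 66.5% for PU.1 and 69.0% for H3K4me1, so that part of the gap to kept regions moved with width.

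**Figure D4:**
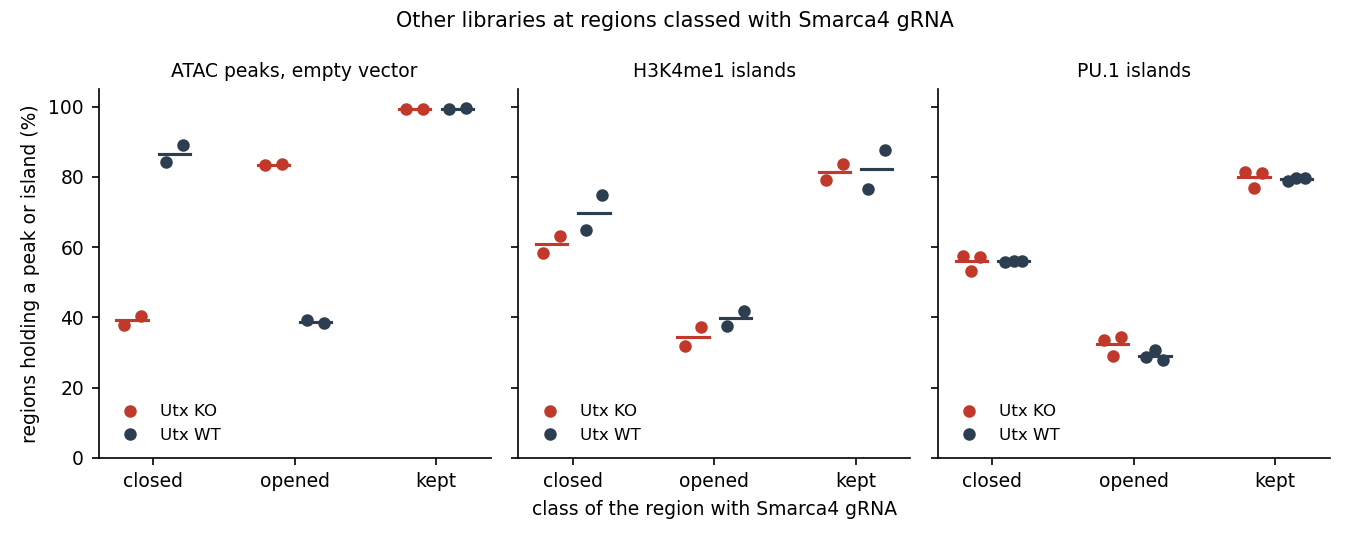
Share of regions that hold an ATAC peak with empty vector, an H3K4me1 island or a PU.1 island (vertical axis, percent) for regions closed, opened or kept in Utx KO against WT with Smarca4 gRNA; each point is a library and each bar the group mean, with Utx KO left of WT. The KO points lie below the WT points at closed regions for ATAC (37.9% and 40.5% against 84.3% and 88.9%) and H3K4me1, and on both sides of the WT points for PU.1.

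Each region was given to its nearest protein-coding gene. Of 14939 genes with a region, 4064 (27.2%) had at least 1 closed region, 368 (2.46%) had at least 1 opened region and 116 had both. At least 3 closed regions were found at 590 genes and at least 5 at 116, while 5 genes had at least 3 opened regions. Counts per gene grow with the number of regions, and the share of all regions that was closed is 12.3%.

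Nav1, a gene of a microtubule-binding protein (chromosome 1, 135434580 to 135688350, GRCm38), had the most closed regions, 12 of 27, and 11 of them were closed with the empty vector too. The KO libraries held 12 and 10 of its 27 regions and the WT libraries 24 and 27. Among empty vector libraries, KO held 12 and 12 and WT 26 and 26. Nav1 was named for its regions closed with Smarca4 gRNA and closed with both guides. Lower counts in KO under each guide were therefore largely set by that choice. Of its 20 regions at equal list length, 2 were closed.

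Sorl1, a gene of an endosomal sorting receptor (chromosome 9, 41964709 to 42124297), had 7 of 8 regions closed. The KO libraries held 1 and 1 of the 8 regions and the WT libraries 8 and 8. Under the empty vector, KO held 2 and 2 and WT 8 and 8. The region over the gene end at chr9:42123873-42124474 was absent from both KO libraries and measured 534 and 602 bases in the WT libraries. H3K4me1 and PU.1 islands of every KO and WT library covered it in full. Tcp11l1 had 6 of 8 regions closed, all 6 with the empty vector as well. Sorl1 and Tcp11l1 were named for regions closed with both guides, so their lower KO counts under each guide were largely set by that choice. When lists were cut to equal length, 3 of 5 Sorl1 regions and 3 of 6 Tcp11l1 regions were closed.

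The other genes with most closed regions were Zmiz1, of a transcriptional coactivator (10 of 49), Arid5b, of a DNA-binding chromatin factor (10 of 28), Bbs9, of a BBSome subunit (9 of 27), Cmip (9 of 40), Gramd1b, of a cholesterol transfer protein (9 of 26), Os9, of a lectin in endoplasmic reticulum quality control (8 of 13), and Asap1, of an Arf GTPase-activating protein (8 of 18). Bbs9 had 6 closed regions at equal list length, Arid5b 4, Zmiz1 and Cmip 3 each, Os9 and Asap1 2 each and Gramd1b 1. The most regions closed with Smarca4 gRNA but open in all 4 empty vector libraries lay at St6galnac3, Ripor2, Zfp36l1 and Zfp521, with 4 each. Zfp36l1, of a protein that destabilises mRNAs, had 5 of 8 regions closed. The KO libraries held 2 and 0 of the 8 regions and the WT libraries 7 and 8, against 6 and 7 in KO and 8 and 8 in WT with the empty vector. Its region at chr12:80059845-80060709 measured 0 bases in both KO libraries and 841 and 865 in the WT libraries. It measured 598 and 369 bases in KO and 865 and 865 in WT with the empty vector.

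**Figure D5:**
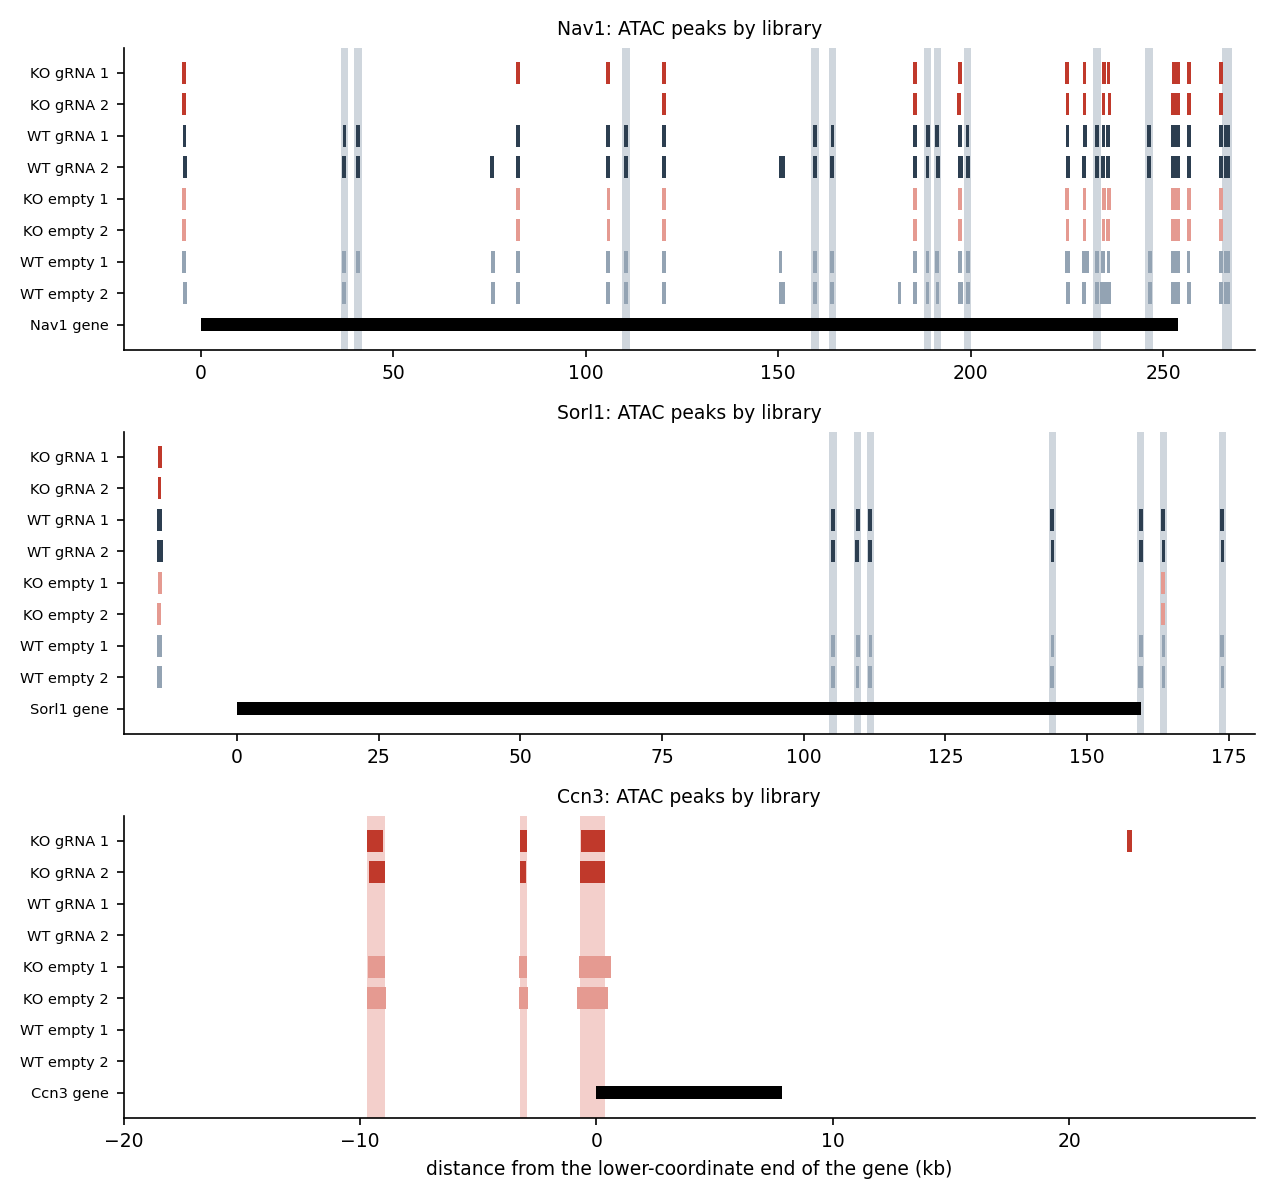
ATAC peaks at Nav1, Sorl1 and Ccn3 in the 8 libraries of set B, drawn by distance from the lower-coordinate gene end (horizontal axis, kb) with 1 row per library and Utx KO above WT for each guide; grey bands mark regions closed and pink bands regions opened with Smarca4 gRNA, and narrow peaks are drawn at a minimum width. At Sorl1 the KO rows are empty at 7 of 8 regions with Smarca4 gRNA and at 6 of 8 with empty vector, and at Ccn3 the WT rows are empty throughout.

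The 4 widest closed regions (mean of the 2 WT libraries) were nearest to Cst3, Hand2, Foxa2 and Stam2. A region 1354 bases from Cst3, the cystatin C gene, at chr2:148876867-148879941 measured 0 bases in both KO libraries and 1784 and 2917 in the WT libraries. Under the empty vector it measured 0 and 0 in KO and 840 and 1327 in WT. A region over Hand2, of a transcription factor of heart development, at chr8:57322018-57323875 measured 0 bases in both KO libraries and 1723 and 1858 in WT, and with the empty vector 0 and 281 bases in KO and 978 and 1443 in WT. The region over Foxa2, of a forkhead factor of endoderm, at chr2:148043434-148045887 measured 0 bases in both KO libraries and 1073 and 2454 in WT. It measured 0 and 0 in KO and 1636 and 1700 in WT with the empty vector. The region within Stam2, of an endosomal adaptor, at chr2:52696394-52698889 measured 0 bases in both KO libraries and 1014 and 2496 in WT. It was open with the empty vector in 1 KO library (618 bases) and both WT libraries (2436 and 2258 bases).

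Ccn3, of a secreted matrix-associated protein of the CCN family (chromosome 15, 54745910 to 54753762), had 3 of 5 regions opened, all 3 also with the empty vector. The KO libraries held 5 and 3 of the 5 regions and the WT libraries 0 and 0. Under the empty vector, KO held 4 and 4 and WT 0 and 0. Ccn3 was named for its opened regions, also those opened with both guides, so these counts were largely set by that choice. The region over its gene end, chr15:54745227-54746295, measured 1028 and 1043 bases in the KO libraries and 0 in both WT libraries. It measured 1069 and 1069 bases in KO and 0 and 0 in WT with the empty vector. H3K4me1 islands of both KO and both WT libraries covered 895 to 1069 bases of it. All 3 regions left at equal list length were opened.

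Slit2, of a secreted guidance ligand of Robo receptors, had 3 of 13 regions opened, all with the empty vector as well, and 1 closed, though 1 of the opened regions lay 942685 bases away. Zbtb10 (3 of 6), Galc, of a lysosomal galactosylceramidase (3 of 14), and Ccdc171 (3 of 10) followed, and each had 3 or 4 opened regions at equal list length. Both regions of Fhl5 were opened under both guides. Slit2 and Fhl5 were named for regions opened with both guides, which largely set these counts. The widest opened region lay 5697 bases from Fam3b, of a secreted cytokine-like protein, at chr16:97463013-97465267. It measured 2255 and 1322 bases in the KO libraries and 0 in both WT libraries, and 1781 and 1476 bases in KO and 0 and 0 in WT with the empty vector. PU.1 islands covered 2255 bases of it in each of the 3 KO libraries and 586, 987 and 987 bases in the WT libraries. The region was picked for its width, and how often PU.1 cover separates the genotypes over all regions was not counted. At the region over the Ccn3 gene end PU.1 cover overlapped, with 399, 399 and 599 bases in KO and 399, 599 and 399 in WT. Regions nearest to Tcte2 and within Cacng4 were the next widest, with 1204 and 1186 bases and with 1327 and 918 bases in the KO libraries. Of the neighbours of an opened region, 20 of 230 within 10 kb (8.70%), 38 of 442 within 50 kb (8.60%) and 58 of 822 at any distance (7.06%) were opened, against 0.325%, 0.365% and 0.603% of the neighbours of a kept region. A pair of opened neighbours counts from both sides. For closed regions the shares were closer, with 17.2% of the neighbours of a closed region within 10 kb closed, against 13.8% of those of a kept region.

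Opened promoters included 7 windows on the X chromosome (9.09% of 77, beside 3.72% of all windows). Of these, Pou3f4, of a POU homeodomain factor, Rps6ka6, of a ribosomal S6 kinase, Hdx, of a homeobox protein, and Klhl4 start within 1 stretch from chrX:110814129-110814428 to chrX:114474083-114474382. The KO libraries covered 230 and 279 bases of the Pou3f4 window, 210 and 164 of the Rps6ka6 window, 266 and 300 of the Hdx window and 300 and 300 of the Klhl4 window, and the WT libraries 0 of each. With the empty vector both KO libraries and no WT library held the Pou3f4, Hdx and Klhl4 windows, and no library held the Rps6ka6 window. Klhl4 had 1 CpG in its window, so that not all opened promoters were CpG-rich.

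Of the targeted genes, Kdm6a had 0 closed and 0 opened of 6 regions, with 4 and 4 held in KO and 4 and 5 in WT. Smarca4 had 1 closed of 2 regions, 5794 bases from the gene at chr9:21609970-21610311, with 0 bases in both KO libraries and 342 and 284 in the WT libraries. All 4 empty vector libraries held it. No region of Chd4 (3), Spi1 (4), Gata1 (2) or Gata2 (7) was closed or opened. A guide's cut need not remove a peak, so these values check no label.

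Across 28 gene lists of 439 genes, 16 lists had a larger share of closed regions than all regions (12.3%), and 9 held an opened region. The lists were chosen with earlier results known, and their shares moved with list length: 7 lists lay above the share of all regions and 9 at or below it in the full lists, at equal list length (5.90% of all regions closed) and without KO replicate 2 (13.5%), and 12 changed sides. Markers of lymphoid cells, stroma and endothelium were open in every library too, with 39 and 26 of 54 T and NK cell regions in KO and 38 and 49 in WT, and their part in the results was not tested.

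Among lists above the share of all regions in all 3 settings, megakaryocyte genes had 20 of 102 regions closed (19.6%) and 0 opened, with 62 and 48 held in KO and 81 and 91 in WT. Angpt1, of a ligand of the Tie2 receptor, had 4 closed of 18 and F2r, of the thrombin receptor, 3 of 6. Erythroid genes had 12 of 70 closed (17.1%) and 1 opened. Of 3 regions nearest to the beta-globin gene Hbb-bt 2 were closed, where reads of the near-identical copies of the cluster may be split. NuRD complex genes had 10 of 63 closed (15.9%), 5 of them at Mta3, where the region at chr17:83816226-83817298 measured 0 bases in both KO libraries and 1043 and 1042 in WT. It was closed with the empty vector too, with 0 and 0 bases in KO and 1073 and 1071 in WT. Inhibitors of ERK signalling had 23 of 157 closed (14.6%), 5 at Spred1 and 4 at Dusp6, which encodes an ERK phosphatase. Krueppel-like factors had 15 of 108 closed (13.9%), 7 of them at Klf7, and 5 of 13 Klf7 regions were closed at equal list length. Hox genes had 2 of 13 closed, at Hoxb2 and Hoxb6, and interferon response genes 4 of 26.

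Among lists at or below the share of all regions in all 3 settings, COMPASS and H3K27 demethylase genes, the family of Utx itself, had 1 of 35 regions closed (2.86%), at Wdr5, but 3 of 36 (8.33%) without KO replicate 2. GATA factors and cofactors had 2 of 44 closed (4.55%), both at Gata3. Mast cell and basophil genes had 13 of 190 closed (6.84%) and 3 opened. Of these regions the KO libraries held 153 and 107 and the WT libraries 153 and 143, so that KO replicate 1 held as many as WT replicate 1. Kit, of the stem cell factor receptor, had 2 closed and 1 opened of 31 regions, with 27 and 17 held in KO and 21 and 20 in WT, and the groups overlapped. Cma1, of a mast cell chymase, and Gzmb, of a granzyme, had 1 closed and 1 opened each. Stem cell regulators had 14 of 192 closed (7.29%) and 2 opened, with 3 closed at Mecom and 2 closed and 1 opened at Mllt3. Factors around Tal1, Lmo2 and Gfi1 had 4 of 53 closed (7.55%), ribosomal protein genes 5 of 58 (8.62%), cytokine and chemokine receptors 16 of 172 (9.30%), AP-1 factors 8 of 82 (9.76%) and BAF complex genes 9 of 74 (12.2%).

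Lists that changed sides included survival genes, with the highest share in the full lists, 17 of 79 (21.5%). The share was 3 of 58 (5.17%) at equal list length. Bcl2, which encodes an inhibitor of apoptosis, had 6 of 20 regions closed, all inside the gene, and 3 of them were closed with the empty vector. Its region at chr1:106579737-106580144 measured 0 bases in both KO libraries and 408 and 351 in WT, and at equal list length 0 of its 14 regions were closed. Runx family genes had 17 of 111 closed (15.3%), 7 at Runx3 and 4 at Runx1, but 2 of 75 at equal list length. ETS factor genes had 23 of 167 closed (13.8%) and 0 opened, 6 of them at Etv6, of which 4 of 27 regions were closed at equal list length. Monocyte and macrophage genes had 15 of 98 closed (15.3%), with F13a1, of a coagulation factor, closed at all 3 of its regions. B lineage genes had 10 of 63 (15.9%), stroma and endothelium genes 10 of 69 (14.5%), Spi1 and IRF factors 4 of 28 (14.3%), neutrophil genes 4 of 31 (12.9%), growth and cell cycle genes 19 of 153 (12.4%) and C/EBP factors 3 of 25. Polycomb genes had 8 of 78 closed (10.3%), 5 of them at Eed, and T and NK cell genes 5 of 54 (9.26%), with the only region of Cd28, a T cell costimulatory receptor, opened under both guides.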

How the data were processed

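Mouse ATAC-seq peak lists, 1 per library, were used as the authors deposited them. Per the submitters' processing notes, Bowtie2, Bowtie, MACS2 and SICER were used on build mm10, with no version or role given in the sources used here. ATAC lists give positions only. The deposited ChIP lists add a score per island, which was not used. Depth is unknown, so no interval is given for a value.

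Peaks of the 4 Smarca4 gRNA libraries were merged where they overlapped by 1 base, and a library held a region when 1 base of its peaks lay there. With 2 libraries against 2, no region has a test. Library values were compared by exact permutation tests. Genes, promoters and sequences came from RefSeq (GRCm38.p6), and 459 of 463 list entries matched. Named genes were those with most closed or opened regions per class or list, the widest regions and 6 fixed genes. Members and lists were chosen with earlier results of these data known. The code was tested on simulated data. Regions were handled in pandas 2.3.3 and numpy 2.4.6 under Python 3.11.15, exact tests enumerated all arrangements of the libraries, and plots were drawn with matplotlib 3.10.9. Nothing says that libraries came from separate mice, so p-values measure only the spread between libraries. Alternatives were list length, width, cover, merging gap, autosomes and each library left out.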

Additional observations from a re-analysis of the deposited data

Results flagged for a closer look

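Some regions differed by genotype in opposite directions under the 2 guides. In Utx KO against WT, 14 regions were closed with Smarca4 gRNA and overlapped a region opened with the empty vector, and 7 were opened with Smarca4 gRNA and overlapped a region closed with the empty vector. The difference between the guides was not tested at these regions. They were 251 to 863 bases wide. The region within Foxn3 measured 0 bases in both KO and 295 and 277 bases in both WT libraries with Smarca4 gRNA, against 294 and 286 bases in KO and 0 in both WT libraries with the empty vector. The region near Tet2, of a DNA demethylase, measured 0 in both KO and 354 and 344 in WT with Smarca4 gRNA, against 311 and 215 bases in KO and 0 in both WT libraries with the empty vector. The region near Ubash3b measured 274 and 221 bases in the KO libraries and 0 in both WT libraries with Smarca4 gRNA. With the empty vector it measured 0 in both KO libraries and 257 and 224 bases in WT. At Satb1 all 4 empty vector libraries held some peak in the wider region, so that only part of it went the other way.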

How the results depend on the processing

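Counts and shares under an alternative could only be labelled as unchanged or moved. Log2 ratios, library differences and the difference in median CpG could also reverse, and 0 of them did. The replicate block leaves mean library differences unchanged by construction, and a gene list that changed sides was not counted as reversed. Of 113 values under alternatives, 37 moved beyond the limit set for their kind. For shares of a gene list that limit was the binomial interval, which is wide for short lists: the COMPASS share of 2.86% was 8.33% without KO replicate 2, and at equal list length AP-1 had 4.55% in place of 9.76% and Hox 9.09% in place of 15.4%. At equal list length 2304 regions were closed and 1731 opened (log2 ratio 0.41), with 751 closed and 587 opened under both guides. PU.1 islands of every WT library were then at 55.7% of closed regions, and at 46.6% when a library's islands had to cover 50% of a region. In the wider 50% of each list, 3011 regions were closed and 134 opened. Leaving out each library in turn gave 6908 to 12898 closed and 589 to 2186 opened regions, a log2 ratio of 1.71 to 4.45, 2227 to 3521 closed and 163 to 365 opened under both guides, and 7.59% to 8.76% of closed regions near gene ends. The cause of these shifts was not tested, beyond fewer libraries having to lack or hold a peak. With the replicate block, as same-numbered pairs, the log2 ratio was 2.21, and the differently numbered pairs averaged 2.36. Deviations of same-numbered KO and WT libraries with Smarca4 gRNA correlated at -0.02 over 64315 regions. Between same-numbered libraries of the 2 guides the correlation was 0.05 in KO and 0.08 in WT. Each group gives a single difference between replicates, so these values cannot decide whether the numbers pair the libraries. The alternatives for the gene lists, and for gene-end, ChIP and CpG shares at equal list length or without a library, were chosen after seeing the data. Depth is unknown, and list length limits every count of closed and opened regions.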
